A study of Mus musculus with 8 samples.

Results

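The 9 genes described here are the TGF-beta ligands Tgfb1, Tgfb2 and Tgfb3, the receptors Tgfbr1, Tgfbr2 and Tgfbr3, the intracellular genes Smad3 and Smad7, and Ltbp1, taken by name from the 40838 rows of the count table. All 9 had a row, and all 9 passed the filter on low counts that left 17438 genes for testing. Livers given AAV-TBG-Lpcat3 (the Lpcat3 group, 4 libraries) were set against livers given AAV-TBG-eGFP (the eGFP group, 4 libraries). The mice of both groups were C57BL/6 and ate a NASH diet, which produces fatty liver with inflammation, for 7 weeks before the virus and 9 weeks after it, 16 weeks in all. TBG is a promoter active in hepatocytes, so the delivered gene is driven there and not in the other liver cells, while the RNA came from whole liver. The comparison asks what more Lpcat3, an enzyme that remodels membrane phospholipids, does in a liver with steatohepatitis, and here how the TGF-beta system stands in it.

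TGF-beta is the main fibrogenic cytokine of the liver. It is secreted in a latent form, folded into its own propeptide and tethered to the matrix by latent TGF-beta binding proteins such as the product of Ltbp1, and is set free by integrins, thrombospondin or proteases. The active dimer joins the serine/threonine kinase receptors encoded by Tgfbr2 and Tgfbr1, helped by betaglycan, the product of Tgfbr3, and the receptors phosphorylate SMAD2 and SMAD3, which enter the nucleus with SMAD4. Smad7 is a target of the pathway and its product blocks the receptors, a negative feedback. In fibrosis the pathway turns hepatic stellate cells into matrix-producing myofibroblasts, and macrophages are a source of the ligand.

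Library totals ran from 22433625 to 25651874 counts. Lpcat3 itself was at 274 to 465 CPM (counts scaled to library size, with TMM, a correction for library composition) in the Lpcat3 libraries and at 133 to 173 CPM in the eGFP libraries, so no library went against its label. All 12 hepatocyte markers listed were detected, at 82440 to 116100 CPM in sum in Lpcat3 livers and 69150 to 100900 CPM in eGFP livers. On the first principal component, with 40.9% of the variance, Lpcat3 replicate 3 lay at 51.0 and eGFP replicate 3 at -46.1, farthest apart of all libraries. These libraries were also farthest apart in Lpcat3 itself, at 465 and 133 CPM. Refits without both therefore leave out the widest contrast in the delivered gene. The labels do not say that the samples of a group were separate animals, so p-values measure the spread between samples.

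Of the 9 genes, 0 were called by edgeR's quasi-likelihood test at a Benjamini-Hochberg adjusted p under 0.05, where 0.00573% of all genes tested were called. DESeq2 also called 0 of the 9, against 0.343% of all genes to which it gave an adjusted p. Lpcat3, the delivered gene, was itself not called by edgeR (log2 fold change 1.245, adjusted p = 0.164), while its DESeq2 adjusted p was 1.02e-08. A count of 0 calls in edgeR, here and for the lists below, therefore does not show that genes were unchanged. Before adjustment 1 of the 9 had an edgeR p under 0.05, where 8.48% of all genes met that level (5.18% lower and 3.3% higher in Lpcat3 livers). This gene was Tgfb1, which had the lower level in Lpcat3 livers. It was also the 1 gene of the 9 whose groups did not overlap in CPM, as 4.16% of all genes did not (2.24% lower and 1.93% higher in Lpcat3 livers). Of the 9, 5 had a lower mean log2 level in Lpcat3 livers and 4 a higher one, with a median log2 fold change of -0.03, beside 51.5% lower and a median of -0.0065 over all genes tested. Scaled by library totals, 6 of the 9 were lower, and the median over all genes was then -0.13.

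**Figure D1:**
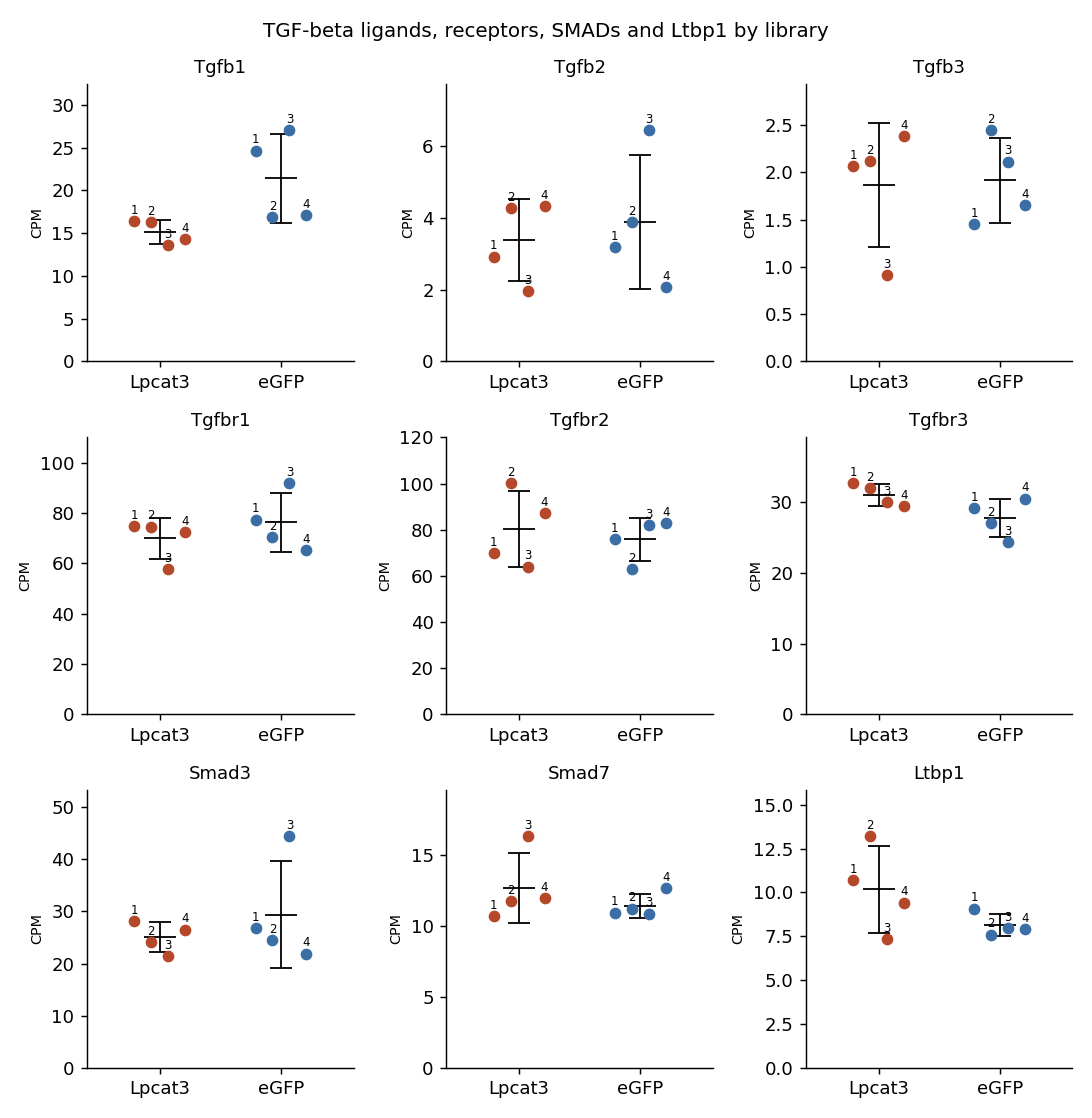
Levels of the 9 genes in CPM (y axes from 0) in the Lpcat3 and eGFP livers, 1 point per library labelled with its replicate number, with the mean and SD of 4 libraries as bars. The groups separate for Tgfb1, with every Lpcat3 library at or under 16.4 CPM and every eGFP library at or above 16.9 CPM, and overlap for the other 8 genes.

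Tgfb1 (NCBI gene 21803, chromosome 7) encodes the ligand best known in liver fibrosis. It stood at 16.4, 16.3, 13.6 and 14.3 CPM in Lpcat3 replicates 1 to 4, against 24.6, 16.9, 27.1 and 17.1 CPM in eGFP replicates 1 to 4. The Lpcat3 livers lay close together, while the eGFP livers fell into a higher pair, replicates 1 and 3, and a lower pair, replicates 2 and 4, just above the Lpcat3 values. The means were 15.2 ± 1.42 CPM in Lpcat3 livers and 21.4 ± 5.21 CPM in eGFP livers (SD, n = 4 each), 0.707-fold in Lpcat3 over eGFP. This gave a log2 fold change of -0.50 (SE 0.16; edgeR unadjusted p = 0.0127, adjusted p = 0.564). The adjusted p of DESeq2 was 0.275. The exact permutation test gave p = 0.0286, the smallest that 4 against 4 libraries allow. The difference therefore did not pass across all genes. With library totals the groups overlapped, since Lpcat3 livers reached 17.0 CPM and eGFP livers began at 16.2 CPM, and the log2 fold change was -0.63.

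Each sample title also holds a code that begins with 1290, 1317, 1344 or 1345, numbers that the labels leave undefined. Of the Lpcat3 libraries 1 of 4, and of the eGFP libraries 3 of 4, have a code of 1290 or 1317, so each side of this division has a single library of 1 group and no replicate check. Code 1317 holds eGFP replicate 3 alone, and code 1344 holds Lpcat3 replicates 2 and 3 alone. A fit with every code number as its own term therefore compares the groups only within 1290 and within 1345. It takes no group contrast from either library numbered 3, so it is no separate check on leaving them out. Within 1290 and 1317 the log2 difference of Tgfb1 was -0.45, and within 1344 and 1345 it was -0.22. Without both libraries numbered 3 it was -0.32 (edgeR adjusted p = 0.928), with Lpcat3 livers at 14.3 to 16.4 CPM and eGFP livers at 16.9 to 24.7 CPM. Those libraries hold the lowest Lpcat3 and the highest eGFP value, so leaving them out could not make the groups overlap.

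Markers of recruited macrophages had their highest and lowest sums in the same libraries as Tgfb1, eGFP replicate 3 and Lpcat3 replicate 3. Their summed level over 15 markers, none at 0 in all libraries, was 311, 272, 123 and 292 CPM in Lpcat3 replicates 1 to 4, against 489, 298, 572 and 232 CPM in eGFP replicates 1 to 4. The eGFP livers with the most Tgfb1, replicates 1 and 3, also had the highest sums, and the groups overlapped. Not every library followed Tgfb1, since eGFP replicate 4 had the lowest eGFP sum but more Tgfb1 than any Lpcat3 liver. A correlation of these sums with Tgfb1 was not computed. Of these markers 14 of 15 were lower in Lpcat3 livers, beside 51.5% of all genes tested, with a median log2 fold change of -0.60, and 0 were called by edgeR. Without both libraries numbered 3, 6 of 15 were lower and the median turned to 0.035. Fitting every code number as its own term, which takes no group contrast from those libraries either, gave 6 of 15 lower, with a median of 0.21. Fitting the division of the codes gave 10 of 15 and -0.17. Kupffer cell markers summed to 321 to 513 CPM in Lpcat3 livers and 360 to 510 CPM in eGFP livers, over 10 markers with none at 0 in all libraries. Of these 10 markers C6 had the highest mean level in each group, at 243 ± 101 CPM in Lpcat3 livers and 178 ± 43.8 CPM in eGFP livers. Of the 10 markers 7 were lower in Lpcat3 livers, beside 51.5% of all genes tested, with a median log2 fold change of -0.44. At an unadjusted edgeR p under 0.05 there were 5, all lower, where 5.18% of all genes were lower at that level. EdgeR called 0 after adjustment. Cd5l, a secreted macrophage protein, had the smallest unadjusted edgeR p of the 10 and does not stand for the list. It was at 39.0 ± 8.34 CPM in Lpcat3 livers and 71.9 ± 22.3 CPM in eGFP livers (SD, n = 4 each; edgeR adjusted p = 0.564). The 3 markers higher in Lpcat3 livers were Timd4, Cd163 and C6, with log2 fold changes of 0.12, 0.39 and 0.45. Without both libraries numbered 3, 9 of the 10 Kupffer cell markers were lower with a median of -0.74. With the division of the codes fitted, 10 of 10 were lower with a median of -0.44. Every code number as its own term, again with no group contrast from the libraries numbered 3, gave 10 of 10 lower, with a median of -0.70. Platelet and megakaryocyte markers summed to 8.61 to 10.4 CPM in Lpcat3 livers and 8.91 to 10.7 CPM in eGFP livers, over 8 markers with none at 0 in all libraries. Neutrophil markers, 9 with none at 0 in all libraries, summed to 5.32 to 9.47 CPM in Lpcat3 livers and 7.97 to 22.7 CPM in eGFP livers, with the highest value in eGFP replicate 3. T and NK cell markers summed to 7.64 to 10.2 CPM in Lpcat3 livers and 7.03 to 17.8 CPM in eGFP livers. Their highest sums were in eGFP replicates 1 and 3. B and plasma cell markers summed to 12.7 to 20.3 CPM in Lpcat3 livers and 16.6 to 27.6 CPM in eGFP livers. The highest was in eGFP replicate 1. Lower in Lpcat3 livers were 8 of 10 T and NK markers tested and 8 of 8 B and plasma markers. Over all genes tested it was 51.5%. EdgeR called 0 in both lists. In whole tissue, fewer cells of a type and less RNA per cell cannot be told apart, and the part of these markers in the Tgfb1 difference was not tested.

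The genes most like Tgfb1 over the 8 libraries, by Pearson's r of log2 CPM among 12603 named genes of at least 1 CPM, included Sirpb1b (r = 0.992) and Ncf4 (r = 0.991), a subunit of the phagocyte NADPH oxidase. Ncf4 was at 1.78 ± 0.307 CPM in Lpcat3 livers and 3.68 ± 1.95 CPM in eGFP livers (SD, n = 4 each). Sirpb1b belongs to a family of near-identical copies, and its counts are uncertain. These r are the highest of many and describe these libraries only. Without eGFP replicates 1 and 3, the libraries farthest from the median of Tgfb1, they were 0.954 and 0.935 over 6 libraries.

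**Figure D2:**
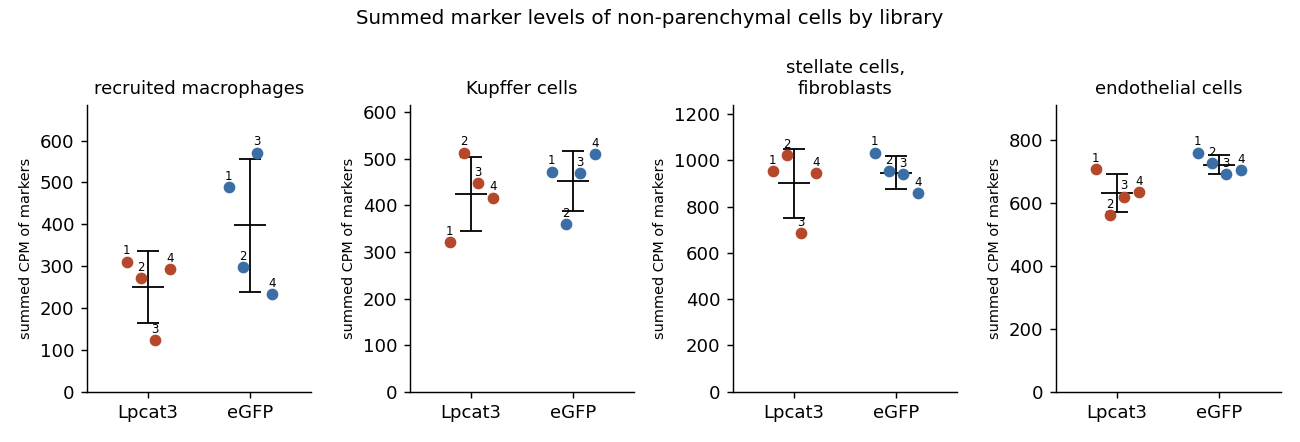
Summed CPM (y axes from 0) of the marker lists of recruited macrophages, Kupffer cells, stellate cells with fibroblasts, and endothelial cells in the Lpcat3 and eGFP livers, with the mean and SD of 4 libraries as bars and replicate numbers beside the points. Recruited macrophage markers are lowest in Lpcat3 replicate 3 (123 CPM) and highest in eGFP replicate 3 (572 CPM).

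The promoters of Tgfb1 and Tgfb2 are shown because both encode ligands of the same receptors, with the groups apart for Tgfb1 and overlapping for Tgfb2; whether their fold changes differ was not tested. Each stretch is 250 bases before and 50 after the gene's start, from RefSeq on GRCm38.p6 and not on the build named in the submitters' notes, read on the gene's own strand. Tgfb1 lies at chr7:25686752-25687051 (plus strand) and Tgfb2 at chr1:186705940-186706239 (minus strand). Capitals mark CAGAC or its complement GTCTG, the core that SMAD proteins bind, and GGGCGG or its complement CCGCCC, the GC box bound by Sp1.
Tgfb1: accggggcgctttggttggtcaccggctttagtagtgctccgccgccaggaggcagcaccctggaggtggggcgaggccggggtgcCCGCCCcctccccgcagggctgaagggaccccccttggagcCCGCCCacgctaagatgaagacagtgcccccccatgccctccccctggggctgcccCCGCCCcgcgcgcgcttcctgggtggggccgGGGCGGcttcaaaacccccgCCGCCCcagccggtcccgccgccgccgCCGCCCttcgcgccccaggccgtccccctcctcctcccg
Tgfb2: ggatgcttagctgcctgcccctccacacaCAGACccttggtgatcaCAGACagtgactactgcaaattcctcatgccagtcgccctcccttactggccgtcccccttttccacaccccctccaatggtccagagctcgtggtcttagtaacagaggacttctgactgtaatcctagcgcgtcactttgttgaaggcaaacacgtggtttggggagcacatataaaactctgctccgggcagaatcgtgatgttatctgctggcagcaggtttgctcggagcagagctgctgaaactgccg
The Tgfb1 stretch is 77.0% G and C and holds 6 GC boxes and 0 SMAD cores, while the Tgfb2 stretch is 54.3% G and C and holds 0 GC boxes and 2 SMAD cores. Of 32851 such promoters of all genes, 49.6% hold CAGAC on either strand and 35.7% hold GGGCGG on either strand, and the median is 52.7% G and C. Matches to both motifs are letters in a window and not measured sites. Of the 9 genes, 6 have promoter entries that were used here.

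Tgfb2 (NCBI gene 21808), a ligand that binds TGFBR2 well only with betaglycan, was at 2.93, 4.29, 1.97 and 4.34 CPM in Lpcat3 replicates 1 to 4, against 3.18, 3.88, 6.46 and 2.07 CPM in eGFP replicates 1 to 4. The extremes were the libraries numbered 3 of each group, and the groups overlapped widely. The log2 fold change was -0.20 (SE 0.36; edgeR adjusted p = 0.865), and it was 0.15 without eGFP replicate 3 and 0.34 without both libraries numbered 3. Within codes 1290 and 1317 the log2 difference was -0.55 and within 1344 and 1345 it was 0.67, so the sign depended on the library set. Its counts ran from 41 to 174 per library, enough that counting error alone would give a coefficient of variation of 10.6%, below the 33.9% seen in Lpcat3 livers and the 47.9% in eGFP livers.

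Tgfb3 (NCBI gene 21809) was the least abundant ligand, with 19 to 60 counts per library. It was at 2.07, 2.12, 0.911 and 2.39 CPM in the Lpcat3 livers and at 1.45, 2.45, 2.12 and 1.65 CPM in the eGFP livers, each in the order of replicates 1 to 4. Lpcat3 replicate 3 was the lowest of all 8, and the other Lpcat3 libraries lay within the eGFP range. The log2 fold change was -0.03 (SE 0.29; edgeR adjusted p = 0.979). Without Lpcat3 replicate 3 it was 0.19. For Tgfb2 the most similar genes were Eef1g (r = 0.972), Spaca6 (r = 0.971) and Cpne8 (r = 0.964), and for Tgfb3 they were Epha3 (r = 0.966), Gem (r = 0.952) and Htra3 (r = 0.952).

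All 3 receptor genes overlapped between the groups. Tgfbr1 (NCBI gene 21812), which encodes the type I receptor kinase that phosphorylates SMAD2 and SMAD3, was at 74.9, 74.6, 57.9 and 72.5 CPM in Lpcat3 replicates 1 to 4, against 77.4, 70.5, 91.9 and 65.3 CPM in eGFP replicates 1 to 4. Its log2 fold change was -0.12 (SE 0.12; edgeR adjusted p = 0.749). Lpcat3 replicate 3 stood below all others, and eGFP replicate 3 above all others, as for Tgfb1, Tgfb2 and Smad3. Without both libraries numbered 3 the log2 fold change was 0.06. The genes most like it included Rhob (r = 0.993), a small GTPase, and Cln3 (r = 0.991).

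Tgfbr2 (NCBI gene 21813), which encodes the ligand-binding type II receptor kinase, was at 69.97, 100.2, 64.1 and 87.3 CPM in the Lpcat3 livers and at 75.8, 62.8, 82.2 and 83.0 CPM in the eGFP livers. Lpcat3 replicate 2 was the highest library and eGFP replicate 2 the lowest, and the Lpcat3 group spanned nearly the whole eGFP range. Its log2 fold change was 0.08 (SE 0.15; edgeR adjusted p = 0.868), and the sign turned with library totals, to -0.04, and without Lpcat3 replicate 2, also to -0.04. Atp6v1c1 (r = 0.957), Entpd5 (r = 0.93) and Stx6 (r = 0.929) were most like it.

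Tgfbr3 (NCBI gene 21814), the co-receptor gene, varied least of the 9 genes, with the highest library 1.34-fold above the lowest. It was at 32.6, 31.9, 29.9 and 29.3 CPM in Lpcat3 replicates 1 to 4, against 29.1, 27.0, 24.3 and 30.4 CPM in eGFP replicates 1 to 4. Of the eGFP livers, replicate 4 alone reached into the Lpcat3 range. The log2 fold change was 0.16 (SE 0.08; edgeR unadjusted p = 0.0806, adjusted p = 0.616). The exact permutation test gave p = 0.114. Libraries with codes 1290 and 1317 gave a log2 difference of 0.29, and those with 1344 and 1345 gave -0.0040. Its 3 most similar genes were Spp2 (r = 0.969), Prim2 (r = 0.967) and Eci1 (r = 0.961), of which Eci1 is a mitochondrial enzyme of fatty acid oxidation and Spp2 a secreted protein made by hepatocytes.

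Smad3 (NCBI gene 17127) encodes the transcription factor that carries the signal to the nucleus. It was at 28.1, 24.1, 21.4 and 26.5 CPM in Lpcat3 replicates 1 to 4, against 26.8, 24.6, 44.4 and 21.9 CPM in eGFP replicates 1 to 4. One library, eGFP replicate 3, stood far above the other 7, which overlapped between the groups. The log2 fold change was -0.23 (SE 0.21; edgeR adjusted p = 0.735), and it was 0.04 without eGFP replicate 3, so the direction rests on that library. The genes most like Smad3 were Zc3h12c (r = 0.995), Rela (r = 0.993), a subunit of NF-kB, and Rnd3 (r = 0.99), and without both libraries numbered 3 these r were 0.959, 0.948 and 0.914 over 6 libraries. Rela was at 31.6 ± 2.64 CPM in Lpcat3 livers and 35.0 ± 8.15 CPM in eGFP livers (SD, n = 4 each).

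Smad7 (NCBI gene 17131), the feedback inhibitor, was at 10.7, 11.8, 16.4 and 11.97 CPM in Lpcat3 replicates 1 to 4, against 10.96, 11.2, 10.9 and 12.7 CPM in eGFP replicates 1 to 4. The eGFP livers were within 2 CPM of each other, and Lpcat3 replicate 3 was the highest of all 8. It was the 1 gene of the 9 that was highest in that library, which was the lowest of all 8 for 6 of the others. The log2 fold change was 0.15 (SE 0.13; edgeR adjusted p = 0.731), and 0.0060 without Lpcat3 replicate 3. Arl5a (r = 0.984), Cnot6l (r = 0.971) and the complement gene C2 (r = 0.969) were most like it.

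Ltbp1 (NCBI gene 268977), which encodes the matrix anchor of the latent ligand, was at 10.7, 13.2, 7.34 and 9.43 CPM in Lpcat3 replicates 1 to 4, against 9.08, 7.60, 7.98 and 7.93 CPM in eGFP replicates 1 to 4. Of the Lpcat3 livers, 3 lay above every eGFP liver, and replicate 3 lay below all 4. Its log2 fold change of 0.32 (SE 0.16) had an edgeR p of 0.0811 before and 0.616 after adjustment. Without Lpcat3 replicate 3 the groups did not overlap, at 9.59 to 13.4 CPM in Lpcat3 livers and 7.73 to 9.24 CPM in eGFP livers, and the log2 fold change was 0.45 (edgeR adjusted p = 0.816). Within codes 1290 and 1317 the log2 difference was 0.38 and within 1344 and 1345 it was 0.29. Kcne3 (r = 0.941), Ints1 (r = 0.929) and Dagla (r = 0.923) were most like it. Over all 9 genes, leaving out the libraries farthest from the gene's median on this measure (6 left) lowered nearly all of these r. They fell as far as 0.76 for Tgfb3 with Epha3, 0.756 for Smad7 with Cnot6l and 0.731 for Ltbp1 with Ints1. The exception was Smad7 with C2, from 0.969 to 0.973.

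**Figure D3:**
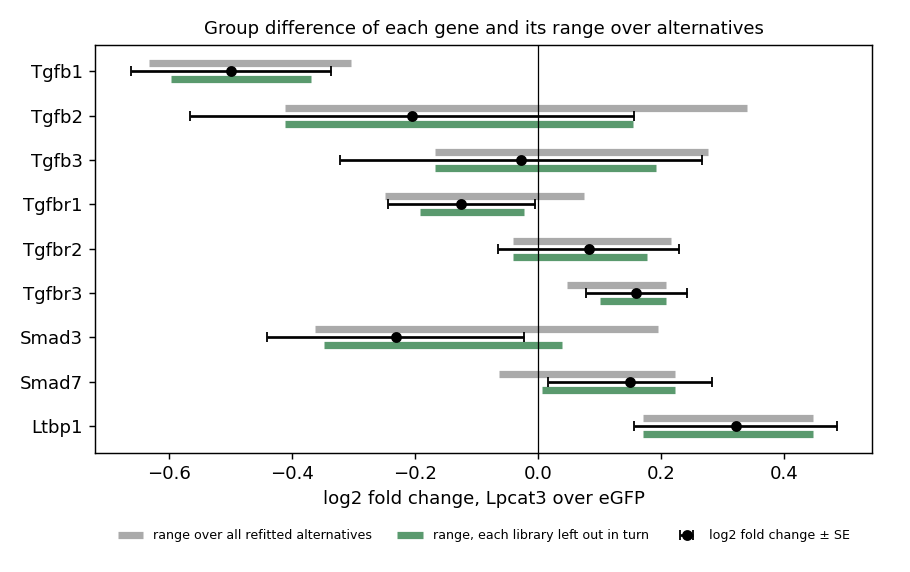
Log2 fold change of Lpcat3 over eGFP (x axis) for the 9 genes, with its SE, above it the range over all refitted alternatives in grey and below it the range on leaving out each library in turn in green. The ranges of Tgfb1 stay below 0 and those of Tgfbr3 and Ltbp1 above 0, while the grey ranges of the other 6 genes cross 0.

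Per length of transcript Tgfbr1, Tgfbr2 and Tgfb1 were the most abundant. In CPM per kilobase of exon (the union of annotated exons in GENCODE M21), the levels in Lpcat3 livers were 10.9 ± 1.27 for Tgfbr1, 9.82 ± 2.01 for Tgfbr2 and 6.96 ± 0.654 for Tgfb1 (SD, n = 4). In the eGFP group they were 11.9 ± 1.80 for Tgfbr1, 9.28 ± 1.14 for Tgfbr2 and 9.85 ± 2.40 for Tgfb1. Tgfb1 thus stood between Tgfbr1 and Tgfbr2 in eGFP livers, with both means within the SD of Tgfb1, and below both in Lpcat3 livers.

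Tgfbr3 and Smad3 came next on this scale, at 5.08 ± 0.258 and 4.92 ± 0.576 CPM per kilobase in Lpcat3 livers and 4.55 ± 0.438 and 5.78 ± 2.01 in eGFP livers. In Lpcat3 livers the difference was within the SD of each gene. In eGFP livers it was within the SD of Smad3 but beyond that of Tgfbr3. Smad7 followed, at 2.90 ± 0.570 in Lpcat3 livers and 2.61 ± 0.192 in eGFP livers, and then Ltbp1, at 1.47 ± 0.356 and 1.18 ± 0.0931 in the same order. Tgfb2, at 0.650 ± 0.220 in Lpcat3 livers and 0.749 ± 0.359 in eGFP livers, and Tgfb3, at 0.553 ± 0.194 and 0.567 ± 0.133, were lowest. Their difference was within the SD of Tgfb2 in both groups, but beyond that of Tgfb3 in eGFP livers. Tgfb1 was thus the most abundant ligand transcript per length in both groups.

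Genes that hold the ligand latent or set it free, 21 of 21 tested, gave 0 calls in edgeR. In the Lpcat3 group 12 were lower and 9 higher, with a median log2 fold change of -0.07, beside -0.0065 over all genes. At an unadjusted p under 0.05 there was 1 gene, lower. Nrros, which tethers latent TGF-beta on macrophages and microglia, was at 11.7 ± 1.64 CPM in Lpcat3 livers and 15.5 ± 3.97 CPM in eGFP livers (SD, n = 4 each; log2 fold change -0.41, SE 0.18; edgeR adjusted p = 0.587). Itgav, the alpha-v chain of the integrins that release TGF-beta, was at 80.0 ± 4.86 against 91.6 ± 11.4 CPM, Mmp14, a membrane protease, at 23.6 ± 5.10 against 29.4 ± 6.08 CPM, and Bmp1, a procollagen protease, at 82.4 ± 8.70 against 71.8 ± 8.42 CPM, each value in Lpcat3 livers against that in eGFP livers. The log2 fold changes without both libraries numbered 3 were -0.22 for Nrros, -0.08 for Itgav, -0.12 for Mmp14 and 0.04 for Bmp1. The list's median then turned to 0.04, and library totals gave 18 lower of 21.

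Of 20 genes for receptor accessories and SMAD machinery, 19 were tested, and edgeR called 0, with 11 lower and 8 higher and a median log2 fold change of -0.0099. Library totals gave 17 lower of 19. At an unadjusted p under 0.05 there was 1, higher in Lpcat3 livers. This was Cav1, the caveolin gene tied to receptor uptake, at 4.78 ± 1.04 CPM in Lpcat3 livers and 3.43 ± 0.665 CPM in eGFP livers (SD, n = 4 each; edgeR adjusted p = 0.579). Acvrl1, the endothelial type I receptor ALK1, was at 5.97 ± 0.745 CPM in Lpcat3 livers and 7.51 ± 1.31 CPM in eGFP livers. Of the endothelial markers 14 of 15 were lower in Lpcat3 livers, beside 51.5% of all genes tested. Their sums were 560 to 707 CPM in Lpcat3 livers and 692 to 759 CPM in eGFP livers, none of the markers at 0 in all libraries. Among Lpcat3 livers replicate 1 was highest and replicate 2 lowest in both Acvrl1 and this sum. Among eGFP livers replicate 3 had the highest Acvrl1 (8.98 CPM) but the lowest sum (692 CPM). The part of these markers in the Acvrl1 values was not tested. Dab2, an adaptor of receptor traffic, was at 41.5 ± 5.77 CPM in Lpcat3 livers and 48.0 ± 2.71 CPM in eGFP livers, and Zfyve9, which encodes the SMAD anchor SARA, at 61.1 ± 7.42 CPM in Lpcat3 livers and 53.2 ± 10.2 CPM in eGFP livers. With all 8 libraries the log2 fold changes were 0.48 for Cav1, -0.33 for Acvrl1, -0.21 for Dab2 and 0.20 for Zfyve9. Without both numbered 3 they were 0.46, -0.22, -0.12 and 0.09.

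Genes listed as inhibitors of the pathway, 14 of 14 tested, gave 0 calls in edgeR. Of these 7 were lower and 7 higher, with a median log2 fold change of 0.0032. The label is loose, since Rnf111, among those higher, is not an inhibitor. Library totals gave 13 lower of 14. Zeb2, a SMAD-interacting repressor also made in macrophages, was the 1 gene at an unadjusted p under 0.05. It was at 88.2, 75.7, 67.5 and 76.9 CPM in Lpcat3 replicates 1 to 4, against 114.9, 93.9, 121.1 and 85.9 CPM in eGFP replicates 1 to 4 (log2 fold change -0.43, SE 0.12; edgeR adjusted p = 0.564). The groups overlapped only where Lpcat3 replicate 1 lay above eGFP replicate 4. Bambi, a decoy receptor, was at 3.52 ± 1.07 CPM in Lpcat3 livers and 2.60 ± 0.197 CPM in eGFP livers (SD, n = 4 each). Tgif1, a corepressor, was at 17.0 ± 2.90 CPM in Lpcat3 livers and 21.9 ± 7.49 CPM in eGFP livers. Smurf2, a ubiquitin ligase, was at 78.5 ± 6.35 CPM in Lpcat3 livers and 72.0 ± 5.57 CPM in eGFP livers. The log2 fold change of Bambi was 0.44 and that of Tgif1 -0.37. Without both libraries numbered 3 the values were -0.29 for Zeb2, 0.54 for Bambi and 0.0051 for Tgif1.

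Genes known to respond to TGF-beta were lower in Lpcat3 livers in 23 of 30 cases tested, of 34 listed, with a median log2 fold change of -0.25. Of all genes tested, 51.5% were lower and the median was -0.0065. EdgeR called 0 of the 30, as did DESeq2, and 3 had an unadjusted p under 0.05 in edgeR, all lower, where 5.18% of all genes did in that direction. The groups did not overlap for 2 of the 30, both lower, where 2.24% of all genes did not overlap in that direction. The direction of the list rested on a few libraries. Those numbered 3 also held the highest and the lowest Lpcat3 level, and the part of that level was not tested. Without Lpcat3 replicate 3, 18 of 30 were lower with a median of -0.08, and without both libraries numbered 3, 14 of 30 were lower with a median of 0.0090. Fitted with the division of the codes, the list had a median of -0.04 over 17 lower of 30. Fitting every code number as its own term, which takes no group contrast from the libraries numbered 3, gave 0.12, with 7 lower of 30. Library totals gave -0.36, with 27 lower.

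Postn, a matrix protein of activated fibroblasts, was at 18.6, 11.5, 12.1 and 15.8 CPM in Lpcat3 replicates 1 to 4, against 21.96, 22.1, 22.8 and 18.7 CPM in eGFP replicates 1 to 4. The groups lay close without overlapping (log2 fold change -0.56, SE 0.15; edgeR adjusted p = 0.564). Klf10, an early TGF-beta response factor, was at 24.4, 22.2, 14.1 and 28.6 CPM in the Lpcat3 livers and 30.5, 31.7, 38.3 and 34.7 CPM in the eGFP livers, again without overlap (log2 fold change -0.60, SE 0.19; edgeR adjusted p = 0.564). Junb, an AP-1 factor, was at 12.04 ± 2.69 CPM in Lpcat3 livers and 18.1 ± 4.17 CPM in eGFP livers, and Loxl2, a collagen crosslinker, at 19.2 ± 3.82 CPM in Lpcat3 livers and 23.9 ± 3.11 CPM in eGFP livers (SD, n = 4 each). Leaving out both libraries numbered 3 gave -0.37 for Klf10 and -0.09 for Loxl2, whose log2 fold change was -0.32 with all 8.

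Ccn2 and Tgfbi, often used as readouts of the pathway, were chosen after their values were seen. They do not stand for the list of responsive genes, in which 23 of 30 were lower in Lpcat3 livers and 7 higher. Ccn2, the connective tissue growth factor gene, was at 11.2 ± 3.53 CPM in Lpcat3 livers and 8.93 ± 3.46 CPM in eGFP livers (edgeR adjusted p = 0.770). Tgfbi was at 53.4 ± 11.01 CPM in Lpcat3 livers and 53.5 ± 5.21 CPM in eGFP livers (edgeR adjusted p = 0.998). Stellate cell and fibroblast markers, 19 with none at 0 in all libraries, summed to 954, 1023, 684 and 944 CPM in Lpcat3 replicates 1 to 4 and 1034, 955, 940 and 858 CPM in eGFP replicates 1 to 4. Lpcat3 replicate 3 was the lowest, and the other 3 Lpcat3 libraries lay within the eGFP range. Of these markers 12 of 19 were lower in Lpcat3 livers, and 7 of 19 without Lpcat3 replicate 3. Both this list and the list of responsive genes hold Col1a1, Col1a2, Col3a1 and Acta2. The part of these cells in the values of the responsive genes was not tested.

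In the BMP and activin branch, most but not all of whose listed ligands use related receptors and SMAD1 and SMAD5 or SMAD2 and SMAD3, 34 of 41 genes were tested. EdgeR called 0, with 16 lower and 18 higher and a median log2 fold change of 0.01, which was -0.11 with library totals and 22 lower. At an unadjusted p under 0.05 there were 3 higher and 2 lower, where 3.3% of all genes were higher and 5.18% lower at that level. Gdf15, a stress-induced secreted member of the superfamily, was at 8.69, 5.48, 1.87 and 5.45 CPM in Lpcat3 replicates 1 to 4, against 9.43, 12.2, 15.2 and 10.5 CPM in eGFP replicates 1 to 4 (log2 fold change -1.13, SE 0.36; edgeR adjusted p = 0.564). Its log2 fold change was -0.71 without both libraries numbered 3. Bmp2 and Bmp6, ligands of liver endothelium that set hepcidin, were without overlap in the other direction, as 1.93% of all genes were. Bmp2 was at 24.1 ± 1.49 CPM in Lpcat3 livers and 20.8 ± 1.97 CPM in eGFP livers, and Bmp6 at 5.01 ± 0.516 CPM in Lpcat3 livers and 4.08 ± 0.296 CPM in eGFP livers (SD, n = 4 each; edgeR adjusted p = 0.579 and 0.581). Hamp, the hepcidin gene, singled out with its values known, was at 244 ± 90.9 CPM in Lpcat3 livers and 227 ± 101 CPM in eGFP livers (edgeR adjusted p = 0.932). Id1, of the same list and also picked with its values known, was lower in Lpcat3 livers. It was at 3.64 ± 1.16 CPM there and at 5.41 ± 1.30 CPM in eGFP livers (edgeR adjusted p = 0.587).

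**Figure D4:**
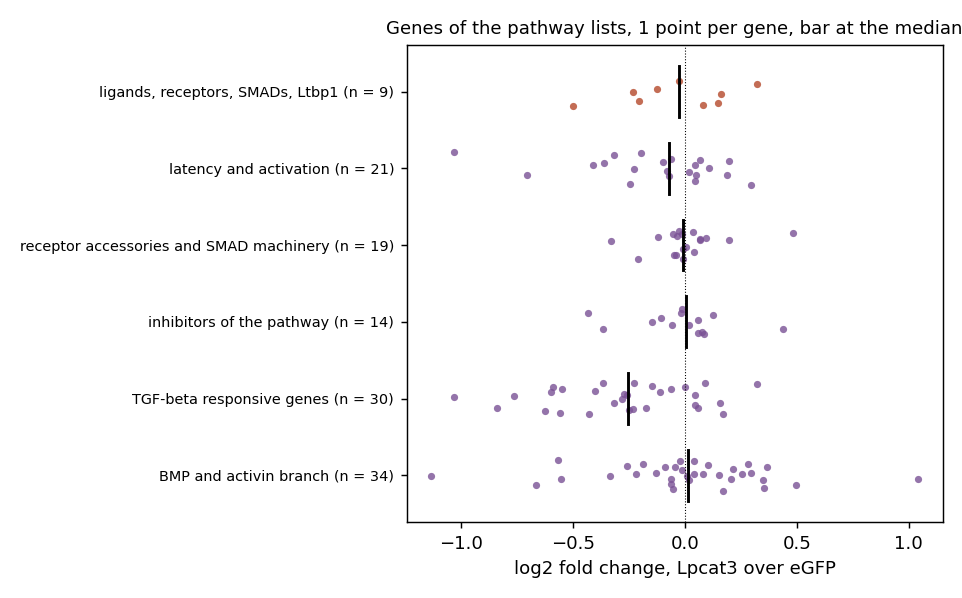
Log2 fold change of Lpcat3 over eGFP (x axis) for the genes tested in each list, 1 point per gene and a bar at the list's median, with the 9 ligand, receptor, SMAD and Ltbp1 genes at the top. The TGF-beta responsive genes have a median of -0.25, and the medians of the other lists lie between -0.07 and 0.01.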

How the data were processed

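RNA was measured in 8 mouse livers. Per the labels' protocols, ribosomal RNA was removed from TRIzol-extracted total RNA and stranded libraries were read for 101 cycles from one end. The authors deposited raw counts per gene, not normalized, named by NCBI gene numbers. The submitters' processing notes name bcl2fastq 2.20, DESeq2 and the build GRCm39; the sources used here name no aligner, counter or strand setting. Reads of members and of genes overlapping them, such as the noncoding Gm51710 at Smad3 (108 to 263 counts) and Gm32435 at Tgfbr1 (42 to 116 counts), may therefore mix.

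Columns were joined to samples by the codes in the titles, and 0 columns had no sample. Symbols came from RefSeq (GRCm38.p6), matching 39397 of 40838 rows with 99.5% of counts, and served for names and neighbours only. Replicates of a group differed by more than sampling noise (mean chi-square per gene 18.9 to 118, where 1 is noise). Genes were filtered with filterByExpr (minimum count 10) and tested with edgeR 4.0.16 in R 4.3.3 (TMM, robust glmQLFit, glmQLFTest, two-sided, Benjamini-Hochberg over all genes). Log2 CPM used a prior count of 2. Exact permutation tests ran over 70 relabellings, two-sided. DESeq2 1.42.0, limma 3.58.1 (voom), other scalings and filters, left-out libraries, the replicate number and the code numbers were alternatives. Members and lists were chosen with earlier results of these data known. Named genes are the 9 members and, per list, the 4 of at least 1 CPM with the smallest p, plus the 3 most similar genes by r; some genes that this rule names are not reported here.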

Additional observations from a re-analysis of the deposited data

Results flagged for a closer look

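The highest or lowest library of a group was compared with the nearest of the other 3, for the 9 members, the list genes named here and the marker sums. Of 78 groups of 4 libraries so checked, 4 had a library set apart by more than Dixon's 95% limit, where chance gives about 1 in 20 groups. Tgfbr1 was at 57.9 CPM in Lpcat3 replicate 3, below the other Lpcat3 livers. The hepatocyte marker sum was 116100 CPM in the same library, above the others. In eGFP replicate 3, Bmp1 was at 59.2 CPM, below the other eGFP livers, and Tgif1 at 32.9 CPM, above them.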

How the results depend on the processing

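Members called stayed at 0 under all alternatives run, as did genes of the other pathway lists under those run for them. Genes called among all tested, 1 as reported, were 3 with library totals, 0 without a filter, 55 with DESeq2, 2 without robust estimation, 0 to 7 on leaving out each library (7 without Lpcat3 replicate 1, 2 without Lpcat3 replicate 2, 0 otherwise), and 0 without both libraries numbered 3, with the code division as a term, or with each code number as a covariate. Members without overlap, 1 as reported, were 0 with library totals, 1 to 2 on leaving out each library (Ltbp1 joined without Lpcat3 replicate 3, Tgfbr3 without eGFP replicate 4) and 2 without both libraries numbered 3.

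Tgfb1, Tgfbr3 and Ltbp1 kept their direction in every refit. The other 6 turned in at least 1, with the cause not tested. Without both libraries numbered 3 the log2 fold changes were 0.34 (Tgfb2), 0.24 (Tgfb3), 0.058 (Tgfbr1), 0.11 (Smad3), -0.018 (Smad7) and, among list genes, 0.0051 (Tgif1). With each code number as a covariate, which takes no group contrast from those libraries either, they were 0.31 (Tgfb2), 0.28 (Tgfb3), 0.075 (Tgfbr1), 0.20 (Smad3), -0.064 (Smad7) and 0.064 (Mmp14). With the code division they were 0.049 (Tgfb2), 0.09 (Tgfb3) and -0.029 (Tgfbr2), with voom 0.012 (Tgfb2) and 0.062 (Tgfb3), and with library totals -0.037 (Tgfbr2) and -0.0004 (Smurf2). Leaving out each library gave -0.41 to 0.15 for Tgfb2, -0.17 to 0.19 for Tgfb3, -0.041 to 0.18 for Tgfbr2 and -0.35 to 0.038 for Smad3.

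Same-numbered libraries did not pair (correlations of deviations 0.28, -0.07, -0.40 and -0.12), and with the replicate block 0 genes were called, with Tgfb1 at -0.47. Depth limits Tgfb3 most, at 19 to 60 counts per library.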
